A study of Bos taurus with 8 samples.

Results

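The insulin-like growth factor (IGF) system was examined in bovine granulosa cells around the surge of luteinizing hormone (LH) that triggers ovulation. It was taken as the ligands IGF1 and IGF2, the receptors IGF1R, IGF2R and INSR, and the binding proteins IGFBP2, IGFBP3, IGFBP4, IGFBP5 and IGFBP6, and its members were all probes that the array's annotation assigned to these symbols. This gave 12 probes for 10 genes among 43794 probes and 15216 named genes, with 3 probes for IGF2 and 1 for each other gene. All 10 genes were among the 14138 that passed the filter on dim spots.

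The cells came from normally cycling Holstein Friesian cows given norgestomet implants, ovine FSH and prostaglandin, with GnRH to induce the surge. Follicles were sampled 2 h before the surge (6 to 8 mm in diameter), 6 h after it (over 8 mm) and 22 h after it (pre-ovulatory). The cells were scraped from opened follicles, so they were mostly mural granulosa cells with a small admixture of theca, which the submitters had detected by PCR for CYP17. Each of 8 two-colour arrays carried 1 sample from after the surge and 1 from before it, with 4 arrays per time, each time on its own slide, and the dyes swapped on 2 arrays of each time. The labels do not say whether equal numbers on the 2 slides mark the same RNA from before LH, so the 8 channels before LH may hold fewer than 8 samples. FSH stimulation and the implants were common to all 3 groups, so no unstimulated cycle is part of the comparison, and follicle size differed between the groups together with time.

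IGF1 and IGF2 act through IGF1R and INSR, which are receptor tyrosine kinases that feed the PI3K and AKT pathway. IGF2R, the cation-independent mannose-6-phosphate receptor, takes up IGF2 for breakdown. The binding proteins hold the ligands outside the cell and mostly limit their access to the receptors, and proteases such as PAPP-A release the ligands from IGFBP4 and IGFBP5. In the ovary IGF action supports granulosa cell proliferation and steroid synthesis together with FSH, and in the follicle of cattle IGF2 is made mainly by theca cells.

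All values below are ratios of RNA after the surge to RNA before it on the log2 scale, where 1 is a doubling, and differences were called at a limma p-value below 0.05 after Benjamini-Hochberg adjustment over all 38453 tested probes. At 6 h, 1 member rose (IGF1R) and 3 fell (IGF2R, INSR and IGFBP6), beside 11.6% of all tested genes that rose and 12.9% that fell. At 22 h no member rose and 4 fell (INSR, IGFBP3, IGFBP4 and IGFBP6), beside 9.85% and 10.7% of all genes. From 6 h to 22 h no member rose and 3 fell (IGFBP3, IGFBP4 and IGFBP6), beside 7.82% and 7.54%. The median change over the 10 members was 0.05 at 6 h and -0.09 at 22 h, against medians of -0.004 and 0.006 over all tested genes. No member rose at 22 h or between the times at an unadjusted p under 0.05 either. The count at 6 h fell from 4 to 2 when the replicate number was fitted as a block, and to 1 without the 2 arrays of replicate 4, whereas the 4 calls at 22 h were also 4 in both of those fits. Centring each array on its median in place of loess left no member called at either time, although the fitted changes kept their sign and were mostly as large (at 22 h -1.70 for IGFBP3, -1.28 for IGFBP6, -0.86 for INSR and -0.78 for IGFBP4), and that fit is the exception in each count of 19 of 20 fits given below.

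**Figure D1:**
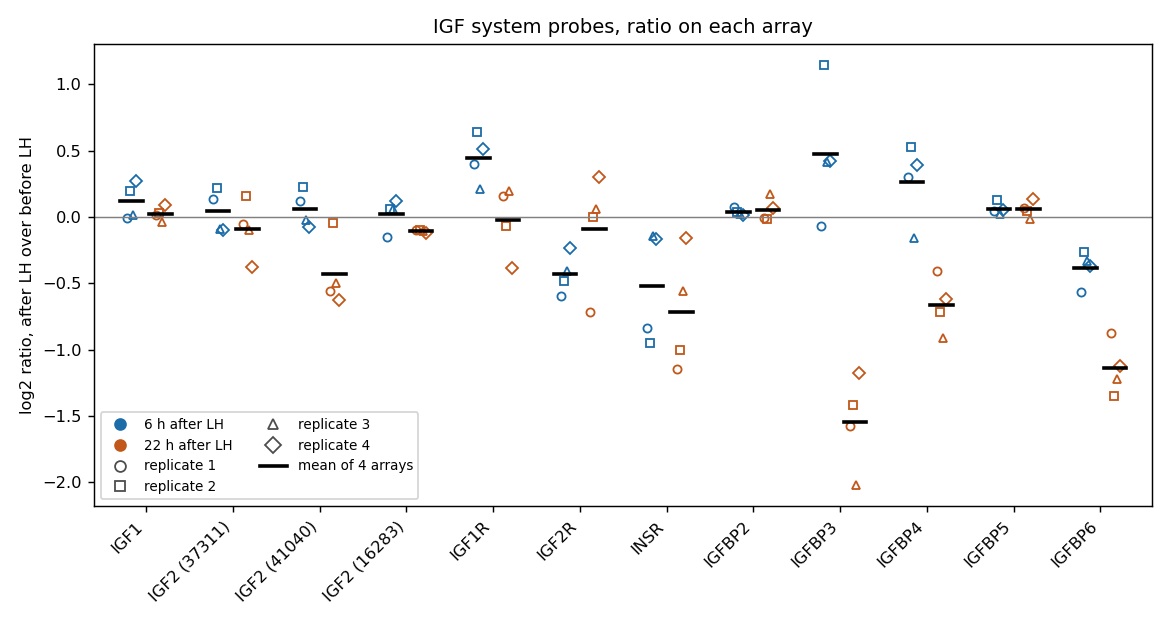
Log2 ratio of RNA after LH over RNA before LH for the 12 IGF system probes, with 1 point per array (4 arrays at 6 h, 4 at 22 h), replicates as marker shapes and means as bars. The 3 IGF2 probes carry the digits of their probe names. All 4 arrays at 22 h lie below 0 for INSR, IGFBP3, IGFBP4 and IGFBP6, and all 4 arrays at 6 h lie above 0 for IGF1R.

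Replicate 4 stood apart from replicates 1 to 3 in level. Its channel differed by more than 4-fold from the mean of the other 3 replicates for 742 to 852 of 14138 genes in each of the 4 sets of channels, against 3 to 35 genes for any other replicate. This held for RNA taken before and after the surge and on both slides. Among the members it was widest for INSR, whose normalised log2 level before LH was 8.98 and 8.82 in replicate 4 and 11.40 to 12.37 in the other 6 channels. Before LH, replicate 4 was also above all other channels for IGF1R and IGFBP6, and below them for IGF2R, IGFBP3 and IGFBP4. The labels do not say what distinguished replicate 4, and where a printed call of a member, pathway gene or named marker was lost without its 2 arrays, the value without them is given.

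**Figure D2:**
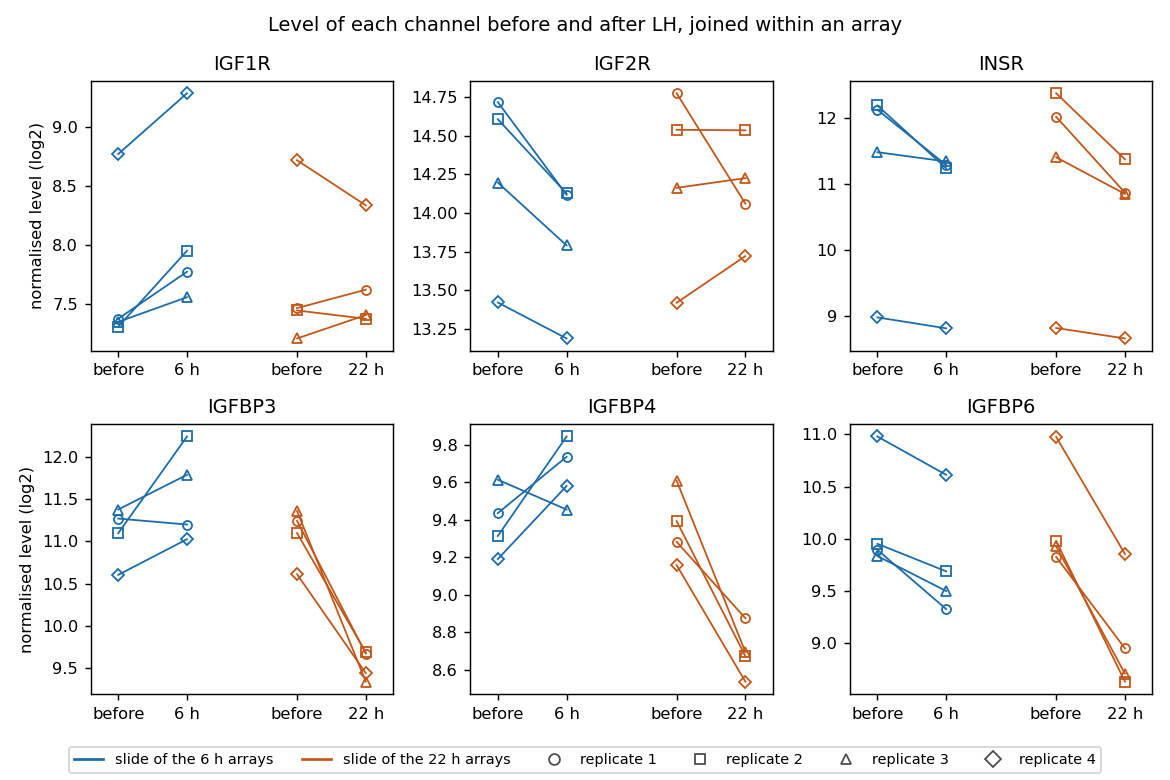
Normalised log2 level in the channel before LH and the channel after LH, joined within each array, for the 6 members called in at least 1 comparison. Replicate 4 (diamonds) lies 3.03 log2 units below the mean of the others for INSR before LH and 1.39 above it for IGF1R, in step on both slides.

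Among the ligands, the single IGF1 probe was dim and did not pass in either comparison. Its spots were 1.13 to 1.33 times as bright as the limit set by the negative controls, in all 16 channels. The fitted change was 0.12 ± 0.05 (SE, 4 arrays) at 6 h, with a 95% interval of -0.01 to 0.25 and a limma adjusted p of 0.208, and 0.02 at 22 h (adjusted p = 0.835). Signal this close to the limit left little room to measure a fall of IGF1 RNA.

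IGF2 was the opposite case, with a main probe at the top of the scanner's range. For this probe, EMBV3_37311, the median pixel was at the scanner's maximum on 6 of 8 channels before LH, 1 of 4 at 6 h and 0 of 4 at 22 h, and the spot had 73.4 to 100% of the intensity of the brightest spot in its channel. The 4 ratios at 6 h were 0.14, 0.22, -0.09 and -0.09, and those at 22 h were -0.05, 0.16, -0.10 and -0.37. Neither time passed (0.04 ± 0.05 and -0.09 ± 0.05, SE; limma adjusted p = 0.702 and 0.355), and the ranges of both times overlapped and held 0.

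The second IGF2 probe, EMBV3_41040, was also bright but below the maximum in every channel, with median pixels up to 65526. Its ratios were 0.12, 0.23, -0.02 and -0.07 at 6 h and -0.56, -0.05, -0.50 and -0.63 at 22 h. It fell at 22 h by 0.43 ± 0.08 (SE; limma adjusted p = 0.0112), and from 6 h to 22 h by 0.50 ± 0.11 (adjusted p = 0.0321). All 4 arrays at 22 h were below 0, but replicate 2 was close to it, within the range of the 6 h arrays. The fall at 22 h missed the threshold without the 22 h array of replicate 3 (adjusted p = 0.0515) and without both arrays of replicate 4 (-0.40, adjusted p = 0.0892). With median centring in place of loess the value was -0.74 but was not called (adjusted p = 0.425). The difference between the times was called in 10 of 19 alternative fits, and missed without any 1 of the 6 h arrays or without 22 h replicate 3 or 4 (adjusted p from 0.0712 to 0.103), and without both arrays of replicate 4 (0.123). The dim probe, EMBV3_16283, was as dim as that of IGF1, and its 22 h ratio of -0.10 was not called (adjusted p = 0.194). In a fit to the authors' deposited ratios, however, this dim probe was called as lower at 22 h (-0.46, limma adjusted p = 0.00622) and from 6 h to 22 h (-0.47, adjusted p = 0.0427), as in none of its other 18 alternatives. The second probe was at -0.61 at 22 h in that fit, and the main probe at -0.16 and not called (adjusted p = 0.225). The 3 probes of IGF2 thus differed in their calls, with 1 of 3 called from the scanner values and 2 of 3 from the authors' ratios. All 3 fitted changes at 22 h were below 0 in both fits. The main probe reached the scanner's maximum and the second probe came close to it before LH. The dim probe lay near the limit of the negative controls. How far these limits held back a measured fall was not tested.

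**Figure D3:**
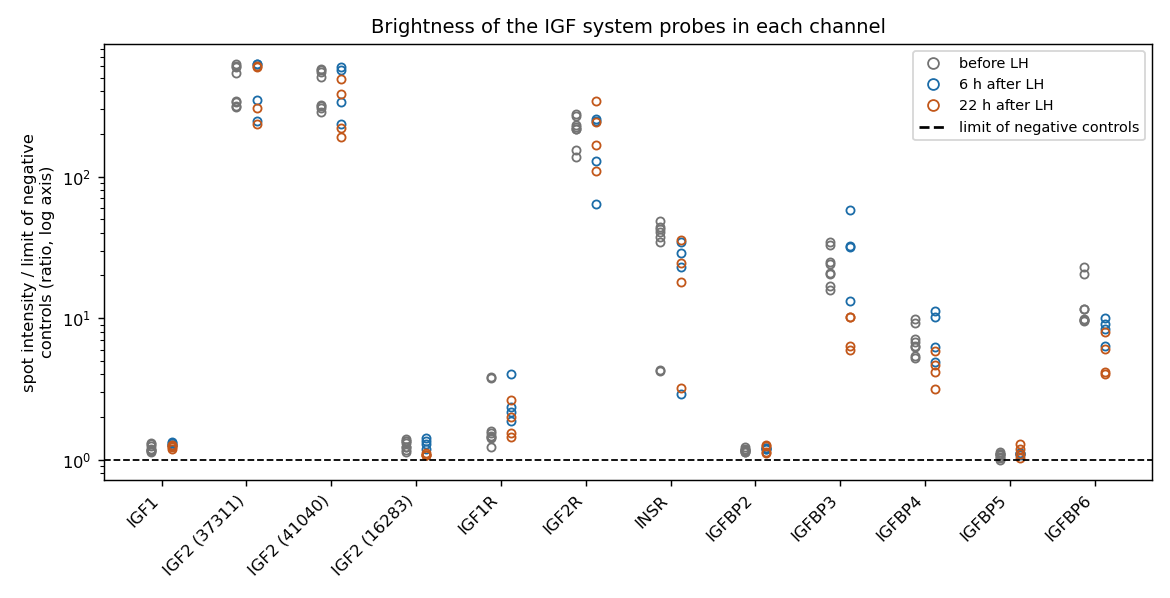
Spot intensity in every channel divided by the limit of the negative controls (95th percentile of 153 spots), on a log axis, for the 12 probes. IGF1, IGFBP2, IGFBP5 and the dim IGF2 probe lie between 0.988 and 1.42 times the limit, and the other IGF2 probes between 190.2 and 625 times.

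Of the 3 receptors, IGF1R rose at 6 h, IGF2R fell at 6 h and INSR fell at both times. IGF1R, the main receptor for both ligands, had ratios of 0.40, 0.64, 0.21 and 0.51 at 6 h and 0.16, -0.07, 0.20 and -0.38 at 22 h. The rise at 6 h was 0.44 ± 0.10 (SE; 1.36-fold; limma adjusted p = 0.0257). All 4 arrays at 6 h were above 0, those at 22 h lay on both sides of it, and the arrays of the times did not overlap, as was the case for 18.0% of all genes measured on all 8 arrays. The change at 22 h was -0.02 (adjusted p = 0.917), and the difference between the times, -0.47 ± 0.14, was not called (adjusted p = 0.0947), with an unadjusted 95% interval of -0.81 to -0.13.

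The IGF1R call at 6 h was not firm. With the replicate number as a block its adjusted p was 0.0625, and without the arrays of replicate 4 it was 0.0751 (0.40). Leaving out the 6 h array of replicate 1, 2 or 4 alone gave 0.0739, 0.129 and 0.111. The sign was positive in all 20 alternative fits. The spots were dim: in replicates 1 to 3 those before LH on the 6 h slide were 1.22 to 1.59 times the limit of the negative controls and those at 6 h 1.87 to 2.34 times, against 3.78 and 4.01 times in replicate 4. Replicate 4 had the highest IGF1R level before LH, 8.77 and 8.72 against 7.21 to 7.47 in the others.

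IGF2R had ratios of -0.60, -0.48, -0.41 and -0.23 at 6 h and -0.71, -0.00, 0.06 and 0.30 at 22 h. It fell at 6 h by 0.43 ± 0.12 (SE; 1.35-fold lower; limma adjusted p = 0.0444), with all 4 arrays below 0. At 22 h the value was -0.09 (adjusted p = 0.702), where replicate 1 alone was far below 0 and the other 3 ran from just below 0 to 0.30. The call at 6 h held in 10 of 20 alternative fits, among them the replicate block (adjusted p = 0.0325). It was lost without any 1 of the 6 h arrays (adjusted p from 0.104 to 0.159) or without the 22 h array of replicate 3 (0.0764) or 4 (0.05005), and without both arrays of replicate 4 (-0.45, adjusted p = 0.135). The same call was lost without a dye effect (adjusted p = 0.0967) and with background from negative controls.

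INSR, the insulin receptor, was called at both times, in 18 of 20 alternative fits at 6 h and in 19 at 22 h. Its ratios were -0.84, -0.95, -0.14 and -0.17 at 6 h and -1.15, -1.0, -0.56 and -0.16 at 22 h. It fell by 0.52 ± 0.06 at 6 h (SE; 1.44-fold lower; limma adjusted p = 0.00209) and by 0.72 ± 0.06 at 22 h (1.64-fold lower; adjusted p = 0.000674). All 8 arrays were below 0, and the times did not differ (-0.19, interval -0.41 to 0.02, adjusted p = 0.257).

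The size of the INSR fall went with the dye and the replicate number, which cannot be told apart. The arrays with the later RNA in Cy5, replicates 1 and 2, had means of -0.89 at 6 h and -1.07 at 22 h. Those with it in Cy3, replicates 3 and 4, had -0.15 and -0.36. The fitted dye effect was -0.36 (adjusted p = 0.0219), and without it in the fit the adjusted p was 0.127 at 6 h and 0.0498 at 22 h. The INSR spots of replicate 4 were 2.93 to 4.29 times the limit of the negative controls. Those of replicates 1 to 3 were 17.9 to 48.1 times that limit. Without both arrays of replicate 4, whose INSR level was lowest, INSR still fell at 6 h (-0.54, adjusted p = 0.00994) and at 22 h (-0.79, adjusted p = 0.00343).

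Of the 5 binding proteins, IGFBP3, IGFBP4 and IGFBP6 fell at 22 h, and IGFBP2 and IGFBP5 were too dim to judge. IGFBP3, the main carrier of IGFs in serum, had ratios of -0.07, 1.15, 0.41 and 0.42 at 6 h and -1.57, -1.42, -2.02 and -1.17 at 22 h. It was the member that moved most, falling by 1.55 ± 0.20 at 22 h (SE; 2.92-fold lower; limma adjusted p = 0.00309). All 4 arrays at 22 h were more than 1 log2 unit below 0, and none overlapped with the 6 h arrays.

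At 6 h the IGFBP3 ratio of 0.48 ± 0.20 was not called (adjusted p = 0.169). Replicate 2 was highest at 1.15 and replicate 1 was just below 0. From 6 h to 22 h IGFBP3 fell by 2.02 ± 0.28 (SE; 4.07-fold; limma adjusted p = 0.00621). The normalised levels after LH went from 11.03 to 12.24 at 6 h and from 9.34 to 9.68 at 22 h, while those before LH were 10.60 to 11.38. The calls at 22 h and between the times held in 19 of 20 alternative fits, and without the arrays of replicate 4 the fall at 22 h was 1.72 (adjusted p = 0.0189).

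IGFBP4, an inhibitor of IGF action and the main substrate of PAPP-A in follicles, had ratios of 0.30, 0.53, -0.16 and 0.39 at 6 h. At 22 h they were -0.41, -0.72, -0.91 and -0.62. It fell by 0.67 ± 0.10 at 22 h (SE; 1.59-fold lower; limma adjusted p = 0.00623) and by 0.93 ± 0.14 from 6 h to 22 h (1.91-fold; adjusted p = 0.00902). The 6 h value of 0.27 ± 0.10 was not called (adjusted p = 0.135). Replicate 3 alone was below 0 at 6 h, all 4 arrays were below 0 at 22 h, and the arrays of the times did not overlap. Both calls held in 19 of 20 alternative fits.

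IGFBP6, which binds IGF2 in preference to IGF1, was lower at both times. Its ratios were -0.57, -0.26, -0.33 and -0.37 at 6 h and -0.88, -1.35, -1.22 and -1.12 at 22 h. The fall was 0.38 ± 0.08 at 6 h (SE; 1.30-fold; limma adjusted p = 0.0196), 1.14 ± 0.08 at 22 h (2.20-fold; adjusted p = 0.000268) and 0.76 ± 0.12 between the times (1.69-fold; adjusted p = 0.00863). All 8 arrays were below 0 and every 22 h array was below every 6 h array.

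The IGFBP6 fall at 22 h held in 19 of 20 alternative fits, and that at 6 h in 13. At 6 h the adjusted p was 0.0533 with the replicate block, 0.106 without the arrays of replicate 4, and 0.0531 to 0.0976 without any 1 of the 6 h arrays, the last without replicate 1. The difference between the times was -0.76 also without replicate 4, with an adjusted p of 0.0581. IGFBP6 levels before LH were 9.83 to 9.98 in replicates 1 to 3 and 10.98 on both slides in replicate 4.

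IGFBP2 and IGFBP5 gave spots 1.12 to 1.26 and 0.988 to 1.29 times the limit of the negative controls. Their ratios lay between -0.02 and 0.18 on the 8 arrays for IGFBP2 and between -0.02 and 0.14 for IGFBP5. None of their comparisons was called (limma adjusted p from 0.332 to 0.973). The 95% intervals of the 22 h change, -0.03 to 0.15 for IGFBP2 and -0.03 to 0.14 for IGFBP5, are those of probes with almost no range below them.

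Among 4 of the 10 members (IGF1R, IGFBP3, IGFBP4 and IGFBP6) the arrays of the 2 times did not overlap, against the 18.0% of all genes given above. In each of the 4 the 6 h arrays were the higher ones. For IGF1R the times nearly met, with a lowest 6 h ratio of 0.209 and a highest 22 h ratio of 0.198. Its difference between the times was not called (limma adjusted p = 0.0947). The 6 h and 22 h values are both ratios to RNA from before LH, which may be the same samples, so they are set side by side and not correlated.

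Some markers of granulosa, theca and endothelial cells were lower at 22 h, when IGFBP3, IGFBP4 and IGFBP6 were lower. Others of granulosa and theca cells rose at 22 h or had already fallen at 6 h. Granulosa markers were present, with 11 or 12 of 12 above background in each group, of which 1 rose and 8 fell at 6 h and 2 rose and 5 fell at 22 h. Beside these and the marker counts below, 11.6% of all tested genes rose and 12.9% fell at 6 h, and 9.85% and 10.7% at 22 h. The granulosa markers that fell at 22 h were INHBB (-3.80), CYP19A1 (-2.47), INHBA (-1.95), HSD17B1 (-1.35) and AMH (-1.01). Those that rose at 22 h were MRO (3.53) and NR5A2 (1.34). Of 8 theca markers, all were above background before LH and at 6 h, and 7 were at 22 h. At 6 h, 1 theca marker rose and 4 fell, and at 22 h, 1 rose and 6 fell. CYP17A1, the theca enzyme of androgen synthesis, was 0.36 at 6 h and -1.88 at 22 h (limma adjusted p = 0.0232, 0.125 without replicate 4, and 3.7e-05), and INSL3 was 0.12 and -1.14 (adjusted p = 0.689 and 0.00274). COLEC11 (-1.37 and -2.55), ANPEP (-1.26 and -1.36), TCF21 (-1.23 and -1.19) and NR2F2 (-0.69 and -0.67) were called as lower at both times, NR2F2 at 22 h not with the replicate block (adjusted p = 0.0532). PTCH1 was -0.54 at 6 h, not called, and rose by 1.53 at 22 h (adjusted p = 0.0587 and 0.00121), and GLI1 was not called. The summed level of the theca list changed by -1.21 to -0.52 on the log2 scale over the 6 h arrays and by -0.80 to -0.47 over the 22 h arrays. Sums are of linear levels, so a bright marker such as TCF21 (mean log2 intensity 12.67) weighs far more than CYP17A1 (9.08). Of 9 endothelial markers, 1 rose and 1 fell at 6 h and 5 fell at 22 h, with summed changes of -0.21 to 0.24 and -0.56 to -0.35. The 5 were KDR (-1.15), EMCN (-0.48), ENG (-0.25), PECAM1 (-0.23) and TIE1 (-0.18). Not called at 22 h were VWF (0.49), CDH5 (-0.03), CLDN5 (-0.09) and TEK (-0.56; limma adjusted p = 0.249, 0.815, 0.625 and 0.114). At 6 h the marker that rose was ENG (0.25) and the one that fell was CLDN5 (-0.75). PECAM1 was not called with the replicate block (limma adjusted p = 0.0685), nor EMCN without replicate 4 (0.0525). Of 10 stromal markers, 1 rose at 6 h and 2 at 22 h with none called as falling (1 and 2 by limma at an unadjusted p under 0.05). Of 9 leukocyte markers, 4 rose at 6 h and none was called at 22 h (1 at an unadjusted p under 0.05). The part of granulosa, theca or endothelial cells in the falls of IGFBP3, IGFBP4, IGFBP6 and the second IGF2 probe was not tested. In these scraped samples fewer cells of a type and less RNA per cell cannot be told apart.

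Around the members stand further genes of the pathway, taken from 4 lists with 68 genes, of which 62 were on the array and 59 passed the filter. At 6 h 10 rose and 6 fell, at 22 h 2 rose and 6 fell, and from 6 h to 22 h 2 rose and 8 fell. The shares of all genes given above are the background for these counts. The median change over the 59 genes was 0.01 at 6 h and 0.02 at 22 h.

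**Figure D4:**
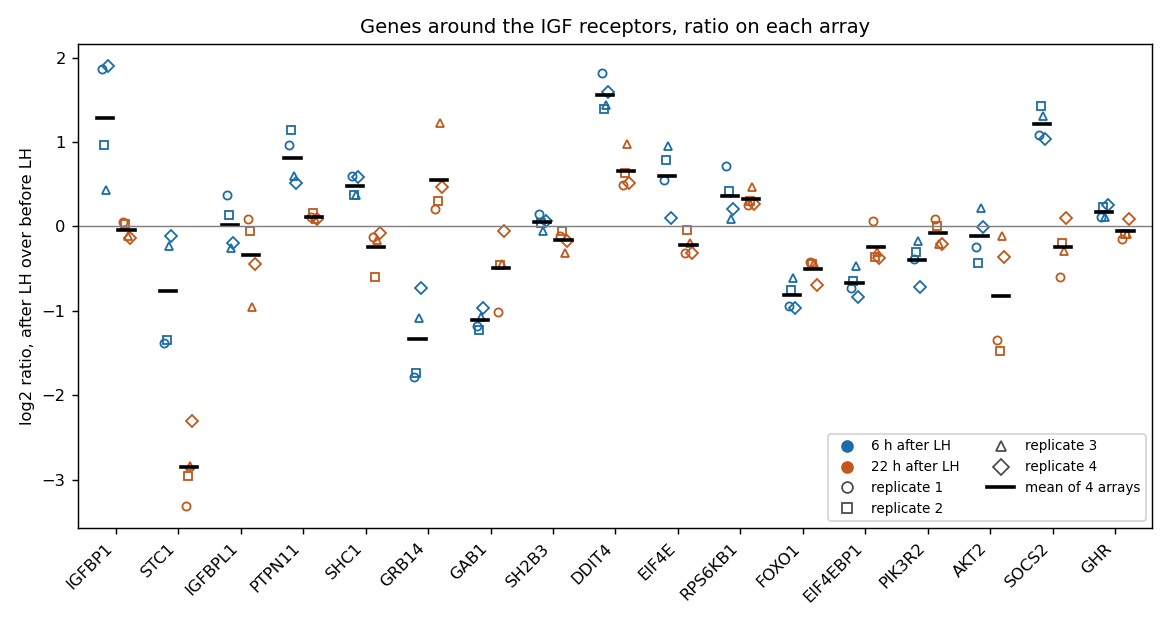
Log2 ratio of RNA after LH over RNA before LH on each array, on the brightest probe, for the 17 pathway genes named by the rule (largest called changes of each list and comparison), with replicates as marker shapes and means of 4 arrays as bars. STC1 lies lowest at 22 h, from -3.31 to -2.30, and DDIT4 and SOCS2 lie above 1 on all 4 arrays at 6 h.

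The list of carriers, relatives and proteases had 13 tested genes, of which 1 rose and 1 fell at 6 h and 2 fell at 22 h. STC1, or stanniocalcin, a secreted inhibitor of PAPP-A, changed most of all. Its ratios were -1.37, -1.35, -0.23 and -0.12 at 6 h and -3.31, -2.95, -2.84 and -2.30 at 22 h. It fell by 0.77 ± 0.12 at 6 h (SE; limma adjusted p = 0.00637), by 2.85 ± 0.12 at 22 h (7.21-fold lower; adjusted p = 3.7e-05) and by 2.08 ± 0.17 between the times (adjusted p = 0.000934). At 6 h the larger falls of replicates 1 and 2 again went with the dye and the replicate number (dye effect adjusted p = 0.0374). Without a dye effect in the fit the 6 h call was lost (adjusted p = 0.0828). At 22 h the fall was called in all 20 alternative fits.

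PAPPA, PAPPA2 and STC2 were at 0.976 to 1.30 times the limit of the negative controls and were not called, and INSRR and the IGF2BP genes were not called either. IGFBP7, a relative with low affinity for IGFs, was bright and had -0.15 at 6 h and -0.52 at 22 h (limma adjusted p = 0.564 and 0.0529), so neither was called. HTRA1, a protease that cleaves IGFBPs, was well above background and not called.

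IGFBP1, a binding protein best known from liver and decidua, was above background on 4 of 4 arrays at 6 h, on 1 of 8 before LH and on 0 of 4 at 22 h. Its 6 h ratios were 1.87, 0.96, 0.43 and 1.90, a fitted rise of 1.29 ± 0.23 (SE; limma adjusted p = 0.00998), whose size is uncertain because the probe was above background before LH on 1 of 8 channels only. In a fit to the authors' deposited ratios it was 1.80. Replicates 1 and 4 were high and replicate 3 low. The rise at 6 h missed the threshold without replicate 1 (1.10, adjusted p = 0.0590) and without both arrays of replicate 4 (0.99, adjusted p = 0.0563). Its mean normalised level was 2.32-fold higher at 6 h than at 22 h, where the probe was not above background on any array. This is the measured ratio, from the mean log2 levels of 4 arrays at each time, and not a lower bound. Taking each 22 h array at the higher of its own signal and the lowest signal above background left the 22 h mean at 6.87. The fitted difference was -1.33 ± 0.33 (SE; limma adjusted p = 0.0471), with an unadjusted interval of -2.11 to -0.56. Its adjusted p was 0.0704 to 0.127 without any 1 array other than 6 h replicate 3. Without both arrays of replicate 4 it was 0.103. IGFBPL1, a dim probe, fell at 22 h by 0.34 (adjusted p = 0.0447) as first fitted and in only 7 of 20 alternatives (0.0576 without replicate 4).

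Of 13 tested receptor adaptors, 2 rose and 2 fell at 6 h, and 1 rose and 2 fell at 22 h. GRB14, an adaptor that inhibits the insulin receptor, had ratios of -1.78, -1.74, -1.08 and -0.73 at 6 h and 0.21, 0.31, 1.22 and 0.46 at 22 h. It fell at 6 h by 1.33 ± 0.12 (SE; limma adjusted p = 0.000651) and was 0.55 ± 0.12 at 22 h (adjusted p = 0.0255). The 22 h call held in 10 of 20 alternative fits. Its adjusted p was 0.0584 with the replicate block and 0.169 without a dye effect. With 1 array left out it was up to 0.118, the highest without 22 h replicate 3. Between the times the difference was 1.88 ± 0.17 (adjusted p = 0.00123). All 6 h arrays were below 0 and all 22 h arrays above it. A second, dim GRB14 probe fell at 6 h by 0.29 (adjusted p = 0.00889, 0.0647 without replicate 4).

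GAB1, a docking protein for PI3K, fell by 1.11 ± 0.11 at 6 h and by 0.49 ± 0.11 at 22 h (SE; limma adjusted p = 0.000763 and 0.0232), and both of its probes were called at both times. Without 22 h replicate 3 the adjusted p at 22 h was 0.125. Its difference between the times, 0.62, had an adjusted p of 0.0425, of 0.0509 with the replicate block, of 0.123 without both arrays of replicate 4, and of 0.0751 to 0.111 without any 1 array other than 22 h replicate 1. PTPN11, the phosphatase SHP2, rose by 0.81 ± 0.07 at 6 h on its brighter probe (adjusted p = 0.000569), from 0.52 to 1.15 over the 4 arrays. Its other probe, of similar brightness, was at -0.00 (adjusted p = 0.998), so the probes disagreed. Between the times the brighter probe fell by 0.69 ± 0.10 (SE; limma adjusted p = 0.00676), a call lost with background from negative controls (-0.64, adjusted p = 0.0916), with the median over both probes (-0.37, adjusted p = 0.0524) and with median centring (-0.69, adjusted p = 0.669). SHC1, an adaptor to the RAS pathway, rose by 0.48 ± 0.09 at 6 h (adjusted p = 0.0102; 0.0592 without its replicate 1 array, 0.0772 without replicate 4) and fell by 0.72 between the times (adjusted p = 0.0127; 0.0609 without replicate 4). SH2B3, dim, was at -0.16 at 22 h (adjusted p = 0.0422, 0.0538 with the replicate block, 0.0517 without both arrays of replicate 4, and up to 0.181 with 1 array left out).

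In the PI3K, AKT and mTOR list 25 genes were tested, of which 5 rose and 3 fell at 6 h, and 1 rose and 2 fell at 22 h. DDIT4, an inhibitor of mTORC1, rose by 1.56 ± 0.10 at 6 h and by 0.65 ± 0.10 at 22 h (SE; limma adjusted p = 0.000156 and 0.00584). Its 8 ratios ran from 1.40 to 1.82 at 6 h and from 0.49 to 0.97 at 22 h, with no overlap, and the fall between the times was 0.91 (adjusted p = 0.00872; 0.0576 without replicate 4). FOXO1, the transcription factor that AKT inactivates, fell by 0.82 ± 0.07 and 0.50 ± 0.07 (adjusted p = 0.000598 and 0.00488) and was below 0 on all 8 arrays.

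EIF4E, the cap-binding factor of translation, rose by 0.60 ± 0.13 at 6 h (SE; limma adjusted p = 0.0195) and its 3 probes were all called, the dimmest of them (0.24, adjusted p = 0.0188) not without replicate 4 (adjusted p = 0.0696). Without the 6 h array of replicate 1 or 2 the adjusted p was 0.0691 or 0.105. It then fell by 0.81 between the times (adjusted p = 0.0333), a call lost without any of 6 arrays, all but 6 h replicates 3 and 4 (0.0573 to 0.109). EIF4EBP1, the repressor of EIF4E, fell by 0.67 ± 0.09 at 6 h (adjusted p = 0.00271), a call not shared by its dim second probe (-0.16, adjusted p = 0.159). PIK3R2, a regulatory PI3K subunit, fell by 0.39 at 6 h (adjusted p = 0.0176; 0.0939, 0.0803 and 0.0576 without 6 h replicate 1, 2 and 4, and 0.0798 without both arrays of replicate 4). Its dimmer second probe was not called (-0.16, adjusted p = 0.0573). RPS6KB1, the S6 kinase, was at 0.36 at 6 h (adjusted p = 0.0356, 0.0780 with the replicate block, 0.1297 without both arrays of replicate 4, and up to 0.127 with 1 array left out). A second, dim RPS6KB1 probe was not called (-0.05, adjusted p = 0.503).

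AKT2, the isoform tied most to insulin signalling, had ratios of -1.35, -1.47, -0.11 and -0.36 at 22 h, a fall of 0.82 ± 0.11 (SE; limma adjusted p = 0.00407). Replicates 1 and 2, with the later RNA in Cy5, again held the larger falls (dye effect adjusted p = 0.0373), and without a dye effect in the fit the call was lost. The difference of AKT2 between the times, -0.70, had an adjusted p of 0.0373, of 0.302 without a dye effect and of 0.0676 with the replicate block. It was 0.0607 without both arrays of replicate 4, and 0.0705 to 0.119 without any 1 of 6 arrays, all but 6 h replicate 4 and 22 h replicate 3. AKT1 and RHEB, the GTPase that activates mTORC1, were the other members of the list that rose at 6 h (0.21 and 0.28, adjusted p = 0.0294 and 0.0210). The AKT1 call was lost without replicate 4 (0.15, adjusted p = 0.0592).

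Of 8 genes of the growth hormone axis, 2 rose at 6 h and none was called at 22 h by limma, nor did any pass an unadjusted p of 0.05. SOCS2, an inhibitor of growth hormone receptor signalling, had ratios of 1.09, 1.42, 1.31 and 1.03 at 6 h and -0.59, -0.20, -0.29 and 0.10 at 22 h. It rose at 6 h by 1.21 ± 0.11 (SE; limma adjusted p = 0.000677) and fell between the times by 1.46 ± 0.16 (adjusted p = 0.0023). A second SOCS2 probe was called in the same way (0.80 at 6 h), and another, dim probe was not. GHR, the growth hormone receptor, was at 0.18 at 6 h (adjusted p = 0.0386, 0.0837 without both arrays of replicate 4, and up to 0.171 with 1 array left out).

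The genes whose ratios ran closest to each called member over the 8 arrays were ranked by root mean square difference, after removal of the fitted dye effect, among genes called in the same comparisons. For IGF1R they were SPRY4 (0.0906 log2 units), AKIRIN1 (0.118) and THAP1 (0.126), of 3459 candidates. IGF2R was nearest to CWF19L2 (0.0871), CHURC1 (0.109) and MRPL53 (0.117), and INSR to KLHL23 (0.102), CHN2 (0.112) and PTPN13 (0.112).

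For IGFBP4 the nearest were TMEM201 (0.115), ARRB1 (0.125) and DAZAP1 (0.141), of 1215 candidates. IGFBP6 came closest to CCNF (0.186), CHST1 (0.195) and SH3GL3 (0.197), of 572. IGFBP3 had no gene nearer than NINJ1 (0.377), followed by SLC16A1 (0.385) and CKS2 (0.387). The distance of IGFBP3 to its nearest gene was thus larger than that of any other called member, which also had smaller changes. NINJ1 had 0.24 at 6 h and -1.53 at 22 h, beside 0.48 and -1.55 for IGFBP3.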

How the data were processed

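RNA of granulosa cells was measured on 8 two-colour arrays. Per the labels' protocols, linear amplification of total RNA was followed by chemical coupling of Cy3 and Cy5. Per the file headers, intensity values in the scanner files are raw, for each spot and its surroundings at both wavelengths. The authors' deposited table of log2 ratios, with steps not given in the sources used here, correlated with the scanner-based ratios (after over before LH) at 0.874 to 0.932 per array, with column medians of -0.0175 to 0.00517, and was used as an alternative. Its exact centring is not known.

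In limma 3.58.1 (R 4.3.3), the median local background was corrected by normexp with an offset of 50, and ratios were normalised within arrays by loess, with control spots at weight 0. Flagged spots (4 to 114 per array) were left out. Probes were tested when the mean intensity passed the 95th percentile of 153 negative controls on 0.5 or more of the arrays in any of the 3 groups. Between 75.1% and 85.4% of probes passed this limit per channel. Array number limits the precision. The fit over 38453 probes had a common dye effect, a 6 h and a 22 h term, 5 residual degrees of freedom and 1.98 prior ones. A gene's value is that of its brightest probe. Levels are log2 channel values after loess and Aquantile scaling. No paper or genome was used, and no coordinates are given.

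All members are named. Of each pathway list, up to 3 rises and 3 falls per comparison with the largest called changes are named, and for each called member the 3 nearest genes. AKT1, RHEB, IGFBP7, HTRA1, PAPPA, PAPPA2 and STC2 were named after their values were seen. The members and lists were chosen with earlier results of these data known. Symbols came from the platform annotation, with 1524 updated through the reference gene table (98.9% of symbols found there), and 21790 of 43794 probes had 1 symbol.

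The labels number replicates 1 to 4 but do not say whether a number marks a shared animal, so p-values measure the spread between these samples. Deviations of same-numbered 6 h and 22 h ratios from their group means correlated at 0.359, 0.561, 0.449 and 0.231, and those of the levels before LH at 0.782, 0.83, 0.858 and 0.972. The levels before LH correlated best with their own number in each of the 4 replicates, and the ratios in replicates 1 to 3 but not in replicate 4. The main fit held no term for the replicate number, so the p-values printed from it take no account of such pairing. The fit with the number as a block was an alternative, given where it changes a call of a member or pathway gene. The number also fixes the dye orientation: after the common dye effect the ratio correlations were -0.07, 0.19, 0.15 and -0.30. Slide and time cannot be told apart. Alternatives covered background, offset, normalisation, filter, dye effect, the authors' ratios, blocks, probe choice and each array left out.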

Additional observations from a re-analysis of the deposited data

Results flagged for a closer look

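Differences between the 2 times after LH, each by the limma contrast of the 22 h and 6 h terms, were flagged for 3 member genes and for the second IGF2 probe. They were -2.02 for IGFBP3, -0.93 for IGFBP4, -0.757 for IGFBP6 and -0.495 for IGF2 (EMBV3_41040) on the log2 scale. In the first 3 the 6 h and 22 h arrays did not overlap, and in IGF2 replicate 2 did overlap.

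Among the pathway genes the same contrast was flagged for STC1 (-2.08), SOCS2 (-1.46), IGFBP1 (-1.33), DDIT4 (-0.907), EIF4E (-0.813), SHC1 (-0.721), AKT2 (-0.705) and PTPN11 (-0.695), all lower at 22 h. It was flagged with the opposite sign for GRB14 (1.88) and GAB1 (0.622). The adjusted p-values are given with each gene above, and each time lay on its own slide, so slide and time cannot be told apart.

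Single arrays lay far from the other 3 of their group by Dixon's criterion in 3 of 58 groups of 4 arrays checked, and chance flags about 1 group in 20. They were SHC1 in 22 h replicate 2 (log2 ratio -0.599), EIF4EBP1 in 22 h replicate 1 (0.0657) and FOXO1 in 22 h replicate 4 (-0.696). No member was among them.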

How the results depend on the processing

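The counts of called members (4 at 6 h, 4 at 22 h, 3 between the times) and of pathway genes (16, 8 and 10) were recomputed under 20 alternatives, of which mean local background and the fit without the 2 arrays of replicate 4 were chosen after seeing the data. Median centring in place of loess gave 0, 0 and 0 members and 0, 1 and 0 pathway genes, and 87, 137 and 22 genes in all in place of 3460, 2908 and 2172, while the fitted changes of the called members kept their sign. At 6 h the member count was 2 with background from negative controls, 2 without a dye effect, 2 with the replicate block, and 1 without the 2 arrays of replicate 4. Leaving out 1 array at a time gave 1 to 4 members at 6 h (1 without 6 h replicate 1, 2 or 4), 4 to 4 at 22 h and 3 to 4 between the times. For pathway genes it gave 8 to 17 (8 without 6 h replicate 1), 4 to 9 (4 without 22 h replicate 3) and 6 to 11 (6 without 6 h replicate 1 or 2 or 22 h replicate 2). Pathway genes called were 4 at 22 h without a dye effect, and between the times 6 with background from negative controls and 6 without the arrays of replicate 4. Over all called probes of the members and pathway genes, the replicate block ended the calls of IGF1R, IGFBP6 and RPS6KB1 at 6 h, GRB14 and SH2B3 at 22 h, and AKT2, GAB1 and the dim GRB14 probe (adjusted p = 0.0591) between the times, and no other. No result changed sign while called. Of the member values under the alternatives 663 kept their side of the threshold, 47 lost a call and 4 gained one. Why these settings moved the counts was not tested. Low signal limits IGF1, IGF1R, IGFBP2, IGFBP5, IGFBP1 and the dim IGF2 probe, and the scanner's maximum limits IGF2.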
